A study of Mus musculus and Rattus norvegicus with 12 samples.

Results

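The insulin-like growth factor (IGF) genes described here are the ligands Igf1 and Igf2, the receptor Igf1r and the binding proteins Igfbp2, Igfbp3, Igfbp4, Igfbp5, Igfbp6 and Igfbp7. They were chosen by symbol, with case ignored, and make up 9 of the 66930 symbols in the mouse and rat count tables together. All 9 were present in both tables and all 9 passed the filter on low counts in both. RNA was sequenced from 12 libraries in 4 groups of 3, in a study that targeted Jmjd4, which encodes a JmjC-domain oxygenase, in heart muscle. The cKO hearts carried floxed Jmjd4 alleles (f/f) and MCM, a tamoxifen-inducible Cre under the myh6 promoter, which drives expression in cardiomyocytes. The flox hearts carried the same f/f alleles with no Cre given in their labels. Both groups of mice received tamoxifen and the heart apex was taken 14 days later, at an age that the labels do not state. With no Cre given for the control mice, effects of Cre with tamoxifen and of losing Jmjd4 cannot be told apart. The siJmjd4 and siNC libraries came from neonatal rat ventricular cardiomyocytes (NRVCs) of Sprague-Dawley rats, plated after a step that removes fast-attaching cells and then given an siRNA against Jmjd4 or a control siRNA for 48 h. The labels do not say whether replicates came from separate animals or cell isolations, so p-values measure the spread between these samples.

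IGF1 and IGF2 are secreted peptides that bind the receptor tyrosine kinase encoded by Igf1r, which signals through insulin receptor substrates to phosphoinositide 3-kinase and Akt and promotes growth and survival, also in heart muscle. In the extracellular space most IGF is held by binding proteins, which carry the ligands, limit their access to the receptor or, when cleaved by proteases, release them. IGFBP7 binds IGFs weakly compared with the other binding proteins and also attaches to extracellular matrix and vessels.

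Libraries held 57174654 to 82187009 counts. Flox replicate 3 stood apart: 41.7% of its counts fell on the mitochondrial genome, where the other heart libraries had 14.2% to 24.1%, and it lacked counts for 1485 tested genes, where the others lacked 125 to 503. In the rat, siNC replicate 3 lacked counts for 461 tested genes and the others for 78 to 137. Short transcripts were relatively more abundant in both libraries, and also in cKO replicate 2 and siJmjd4 replicate 1, so results are given with and without the control library concerned where a call or a direction turns on it. Jmjd4 lay at 8.95, 4.92 and 9.63 CPM (counts scaled to library size, which was adjusted by the trimmed mean of M values, TMM) in cKO hearts and at 19, 8.04 and 16.9 CPM in flox hearts. The groups overlapped, at a log2 fold change of -0.90 (SE 0.44) and an edgeR adjusted p of 0.397. Among NRVCs, the libraries labelled siJmjd4 had 3.58, 3.43 and 3.52 CPM of Jmjd4 and those of siNC had 3.46, 4.4 and 0.982 CPM. Its log2 fold change was 0.25 (SE 0.52), and -0.16 without siNC replicate 3, so the direction turned on that library. These levels rest on 310, 215 and 253 counts in libraries labelled siJmjd4 and 207, 285 and 52 counts in siNC. The knockdown was thus not seen in these counts, and each direction in the rat rests on the labels alone.

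In cKO hearts the Igfbp7 and Igf1 transcripts were 4.04-fold and 2.93-fold the flox means, with every cKO heart above every flox heart, but neither passed an adjusted p of 0.05. Igfbp3, Igfbp4 and Igfbp5 were also higher in every cKO heart than in every flox heart. Igf2, Igf1r, Igfbp2 and Igfbp6 overlapped between the groups. By edgeR's quasi-likelihood test, adjusted over all 18094 genes, 0 of the 9 genes was called, where 0.508% of all genes were called (0.37% higher and 0.138% lower). At an unadjusted p under 0.05 there were 3 (Igf1, Igfbp7 and Igfbp3), where 15% of all genes were. Of the 9, 5 did not overlap between the groups, all higher in cKO, where 26.1% of all tested genes did not overlap and 14.9% were higher without overlap. The median log2 fold change of the 9 was 0.98 and 7 were positive, against a median of 0.00 over all genes, of which 50% were positive.

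**Figure D1:**
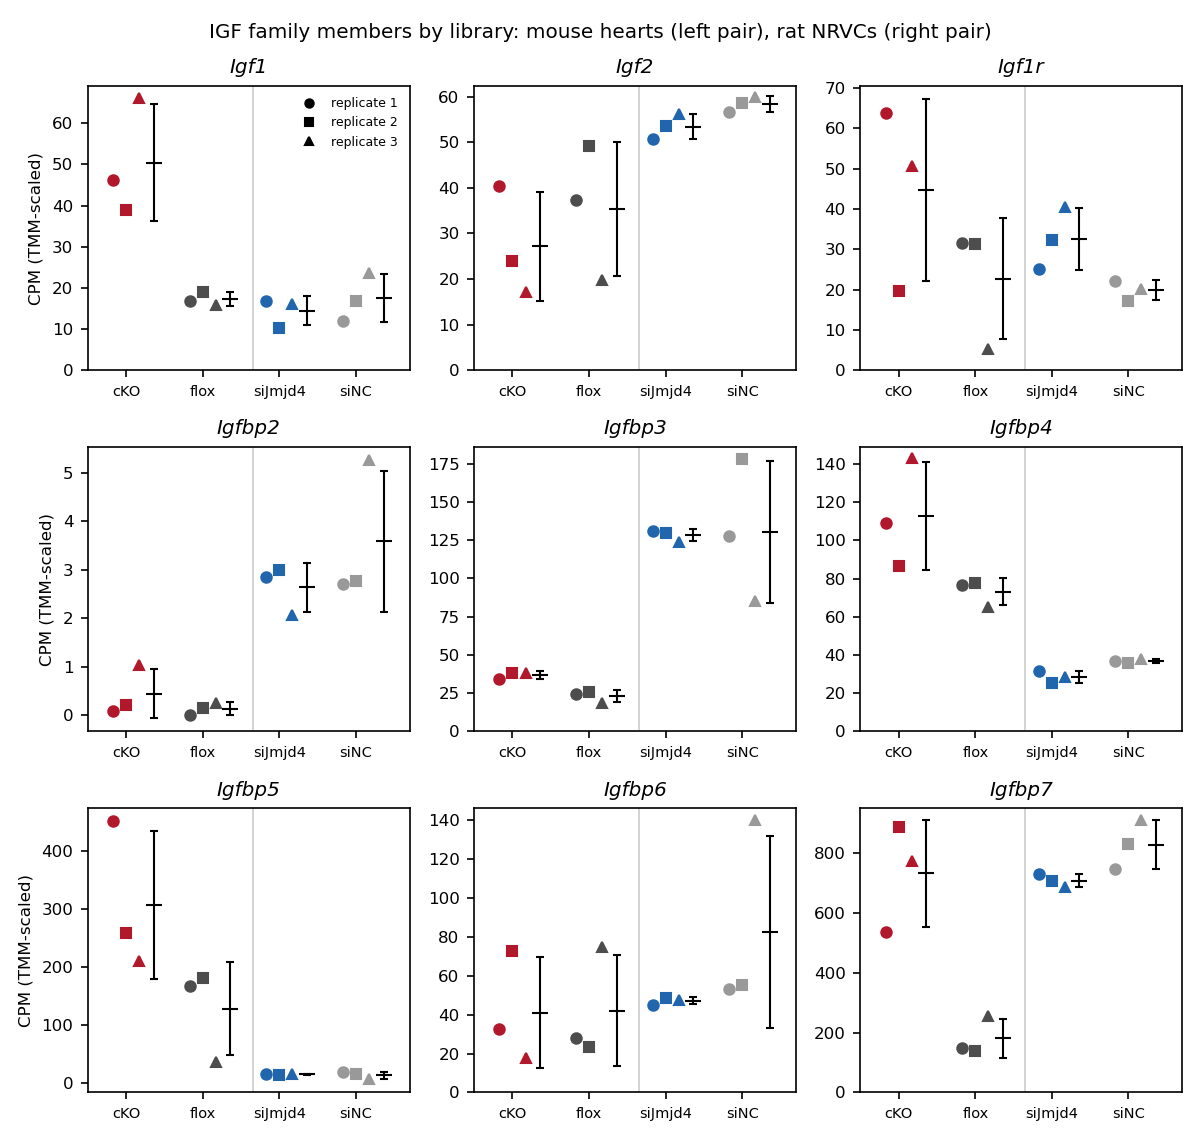
Levels of the 9 genes in every library, in TMM-scaled CPM on axes of their own scale, with cKO and flox mouse hearts on the left of each panel and siJmjd4 and siNC rat NRVCs on the right. Circles, squares and triangles are replicates 1, 2 and 3, and the bars beside them are the mean ± SD (n = 3); Igf1 and Igfbp7 are higher in all 3 cKO hearts than in any flox heart, and neither shows this in the NRVCs.

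Igf1, the ligand that growth hormone induces, lay at 46.3, 38.8 and 66.2 CPM in cKO replicates 1, 2 and 3 and at 16.8, 19.1 and 15.8 CPM in flox replicates 1, 2 and 3. The lowest cKO heart was thus well above the highest flox heart, and the flox hearts were close to each other. The means were 50.4 ± 14.1 CPM in cKO hearts and 17.2 ± 1.68 CPM in flox hearts (SD, n = 3 each). This gave a log2 fold change of 1.55 (SE 0.32) and an edgeR adjusted p of 0.0946, rank 367 by p of the genes tested. Without flox replicate 3 it was 1.49 (SE 0.27) and passed (adjusted p = 0.0263), in a fit that called 7.19% of all genes. It passed as well in DESeq2's Wald test (adjusted p = 2e-04) and in limma voom with sample quality weights (adjusted p = 0.00123), which called 9.66% and 21.3% of all genes. In 11 of 15 alternative fits Igf1 was not called, among them the fit with the length correction (1.17, adjusted p = 0.16). Igf1 spans chr10:87858265-87937042 on the plus strand of GRCm38, and its longest annotated transcript is 7052 bases in 4 exons. The antisense gene Igf1os overlaps its start and had 0, 5 and 0 counts in cKO hearts and 5, 0 and 5 counts in flox hearts.

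Igf2, the fetal growth ligand of an imprinted locus, showed no such separation. It lay at 40.3, 24 and 17.2 CPM in cKO hearts and at 37.3, 49.1 and 19.9 CPM in flox hearts, so that each group spanned a range of more than 20 CPM and the groups overlapped. Its log2 fold change of -0.38 (SE 0.47) had an adjusted p of 0.779. With libraries scaled to total counts alone it was 0.04, on a scale where the median of all genes was 0.54. Igf2 lies at chr7:142650766-142666816 on the minus strand, where Mir483, the antisense gene Igf2os and the gene model Gm49394 overlap it. Igf2os had 5, 9 and 9 counts in cKO hearts and 32, 16 and 0 counts in flox hearts. Igf1 outnumbered Igf2 in all 3 cKO hearts, with count ratios of 1.15, 1.62 and 3.84, and not in any flox heart, with ratios of 0.451, 0.389 and 0.793. This ratio does not depend on library scaling, but the Igf1 transcript is the longer of the pair.

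Igf1r encodes the receptor for both ligands and has the longest transcript of the 9, with 11409 bases. It lay at 63.8, 19.7 and 50.8 CPM in cKO hearts and at 31.6, 31.3 and 5.34 CPM in flox hearts. The lowest value in each group came from a library in which long transcripts were scarce, cKO replicate 2 and flox replicate 3, and the groups overlapped. For Igf1r the log2 fold change came to 0.98 (SE 0.73, adjusted p = 0.609). It was 0.52 (SE 0.46, adjusted p = 0.571) without flox replicate 3. Without both of those libraries, a fit chosen after the data were seen, Igf1r passed (adjusted p = 0.0154), where 19.1% of all genes did. The gene occupies chr7:67952827-68233668 on the plus strand.

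Igfbp7, the binding protein with the highest level per transcript length in every heart library, lay at 536, 886 and 774 CPM in cKO replicates 1, 2 and 3 and at 150, 138 and 255 CPM in flox replicates 1, 2 and 3. The highest flox value, in replicate 3, was still under the lowest cKO value. Means were 732 ± 179 CPM in cKO hearts and 181 ± 64.6 CPM in flox hearts (SD, n = 3 each), a log2 fold change of 2.02 (SE 0.43, edgeR adjusted p = 0.0996, rank 410 by p). Without flox replicate 3 it was 2.35 (SE 0.30) and passed (adjusted p = 0.0104), in a fit that called 7.19% of all genes. It also passed in DESeq2's Wald test (adjusted p = 0.00021) and in limma voom with quality weights (adjusted p = 0.000399), which called 9.66% and 21.3% of all genes. A correction for transcript length kept it passing (log2 fold change 2.42, adjusted p = 0.0118), in a fit that called 5.8% of all genes. In 10 of 15 alternative fits Igfbp7 was not called, among them edgeR with DESeq2's size factors (adjusted p = 0.118). Igfbp7 lies at chr5:77349240-77408041 on the minus strand, and its last bases overlap the end of Polr2b, an RNA polymerase II subunit on the plus strand, whose log2 fold change was -0.15 (adjusted p = 0.892).

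The promoters of Igfbp7 and Igf1, the pair with the smallest p-values in the hearts, are shown for the contrast in their sequence. Each is the 250 bases before the gene's start, read 5′ to 3′ on the gene's strand, from RefSeq promoters of GRCm38.p6, in which all 9 genes were matched. Capitals mark GGGCGG, the letters of a GC box as bound by Sp1 (its reverse complement reads CCGCCC), in Igfbp7 at chr5:77408046-77408295, minus strand. In Igf1, at chr10:87860861-87861110, plus strand, they mark TGANTCA, a pattern looser than an AP-1 site because N is any base. The RefSeq start used for Igf1 lies inside the gene span given above, which begins at an earlier annotated exon.
Igfbp7: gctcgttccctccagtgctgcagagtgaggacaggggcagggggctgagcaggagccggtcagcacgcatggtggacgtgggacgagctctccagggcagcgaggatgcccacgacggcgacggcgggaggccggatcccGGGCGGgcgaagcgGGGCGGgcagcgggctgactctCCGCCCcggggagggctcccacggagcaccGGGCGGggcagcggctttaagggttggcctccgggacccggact
Igf1: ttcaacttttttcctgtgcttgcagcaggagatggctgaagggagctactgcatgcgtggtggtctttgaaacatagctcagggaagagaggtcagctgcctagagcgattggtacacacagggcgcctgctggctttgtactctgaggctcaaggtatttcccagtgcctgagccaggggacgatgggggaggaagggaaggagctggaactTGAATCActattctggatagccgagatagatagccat
The Igfbp7 window holds GGGCGG at 4 places, 110, 96, 74 and 44 bases before the start, the one at 74 on the opposite strand. The Igf1 window holds TGANTCA once, as TGAATCA, 37 bases before the start, where the pattern matches on either strand. Of 32851 promoter windows of the same length, searched on both strands, 32.7% held GGGCGG and 6.75% held TGANTCA. Neither window held TATAAA, found in 12.4% of the windows, CATTCC (the letters of a TEAD site), found in 12.6%, or a CArG box (serum response factor), found in 1.47%. Among the 9 genes, TGANTCA was also in 1 of the 2 windows listed for Igfbp2. GGGCGG was also in windows listed for Igf2, Igf1r and Igfbp2, 3 times in 1 window of Igfbp2. These matches describe letters in the reference, and binding was not measured.

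Igfbp5, a matrix-associated binding protein, lay at 451, 258 and 209 CPM in cKO hearts and at 166, 180 and 35.5 CPM in flox hearts. The groups did not overlap, but cKO replicate 1 and flox replicate 3 lay far from the rest of their groups. On the log2 scale the fold change was 1.27 (SE 0.66, adjusted p = 0.433), and 0.83 (SE 0.37, adjusted p = 0.236) without flox replicate 3. Its neighbour Igfbp2 lies beside it on chromosome 1, on the opposite strand, with Igfbp2 at 72824503 to 72852474 and Igfbp5 at 72857932 to 72874884. Igfbp2, a circulating binding protein best known from liver, was near the limit of detection, with 9, 16 and 92 counts in cKO hearts and 0, 12 and 9 counts in flox hearts. Its log2 fold change of 1.74 (SE 1.45, adjusted p = 0.652) rested on cKO replicate 3, without which it was 0.17.

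Igfbp4, whose cleavage by the protease PAPP-A releases IGF, lay at 109, 86.8 and 143 CPM in cKO hearts and at 76.9, 77.8 and 64.9 CPM in flox hearts. The lowest cKO heart was close to the highest flox heart, for a log2 fold change of 0.62 (SE 0.33, adjusted p = 0.431). Igfbp3, the main carrier of IGF in serum, lay at 34, 38.3 and 38 CPM in cKO hearts and at 24.4, 26 and 18.8 CPM in flox hearts. Its groups were tight and separate, with a log2 fold change of 0.67 (SE 0.28, adjusted p = 0.328). Igfbp3 and Igfbp4, both on chromosome 11, passed in limma voom with quality weights (adjusted p = 0.0349 and 0.0372), which called 21.3% of all genes. They also passed in the fit without flox replicate 3 and cKO replicate 2 (adjusted p = 0.0402 and 0.03). That fit was chosen after the data were seen and called 19.1% of all genes. Igfbp6, which prefers IGF2, lay at 32.6, 72.9 and 17.6 CPM in cKO hearts and at 28, 23.2 and 74.8 CPM in flox hearts. Its high value in each group came from cKO replicate 2 and flox replicate 3, the libraries rich in short transcripts, and its transcript is the shortest of the 9 at 1112 bases. Its log2 fold change stood at -0.03 (SE 0.66, adjusted p = 0.989), and at 0.69 (SE 0.55, adjusted p = 0.525) without flox replicate 3.

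Igfbp7 and Igfbp6 have transcripts of nearly equal length, 1200 and 1112 bases, so their ratio within a library compares genes of 1 length class. There were 16.4, 12.2 and 44 Igfbp7 counts for each Igfbp6 count in cKO hearts, against 5.35, 5.95 and 3.41 in flox hearts. All 3 cKO hearts were above all 3 flox hearts in this ratio, which does not need library scaling, and the difference was not tested. Summed over the 6 binding proteins, expression was 1160, 1340 and 1180 CPM in cKO hearts and 445, 445 and 450 CPM in flox hearts. The sum was higher in every cKO heart also with Igfbp7 left out, at 627, 456 and 408 CPM in cKO hearts and 296, 307 and 194 CPM in flox hearts. Igfbp7 made up 46.1%, 66% and 65.4% of the binding protein counts in cKO hearts and 33.6%, 31% and 56.8% in flox hearts, shares that overlapped because flox replicate 3 was high.

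Levels were set against each other per kilobase of the longest annotated transcript, which gives an order within a group. In cKO hearts Igfbp7 led with a mean level of 610 CPM per kb, followed by Igfbp5 (51), Igfbp6 (36.9), Igfbp4 (29.5), Igfbp3 (15.2), Igf1 (7.15), Igf2 (5.75), Igf1r (3.92) and Igfbp2 (0.338). Igfbp5 and Igfbp6, Igfbp6 and Igfbp4, Igf1 and Igf2, and Igf2 and Igf1r overlapped over the 3 libraries, and the other neighbours in that order did not. In flox hearts Igfbp7 also led, at 151 CPM per kb, followed by Igfbp6 (37.8), Igfbp5 (21.2), Igfbp4 (19.1), Igfbp3 (9.52), Igf2 (7.5), Igf1 (2.44), Igf1r (1.99) and Igfbp2 (0.104). There Igfbp6 and Igfbp5, Igfbp5 and Igfbp4, Igfbp3 and Igf2, and Igf1 and Igf1r overlapped. Igf2 and Igf1 did not overlap in flox hearts, with Igf2 above Igf1, and overlapped in cKO hearts.

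**Figure D2:**
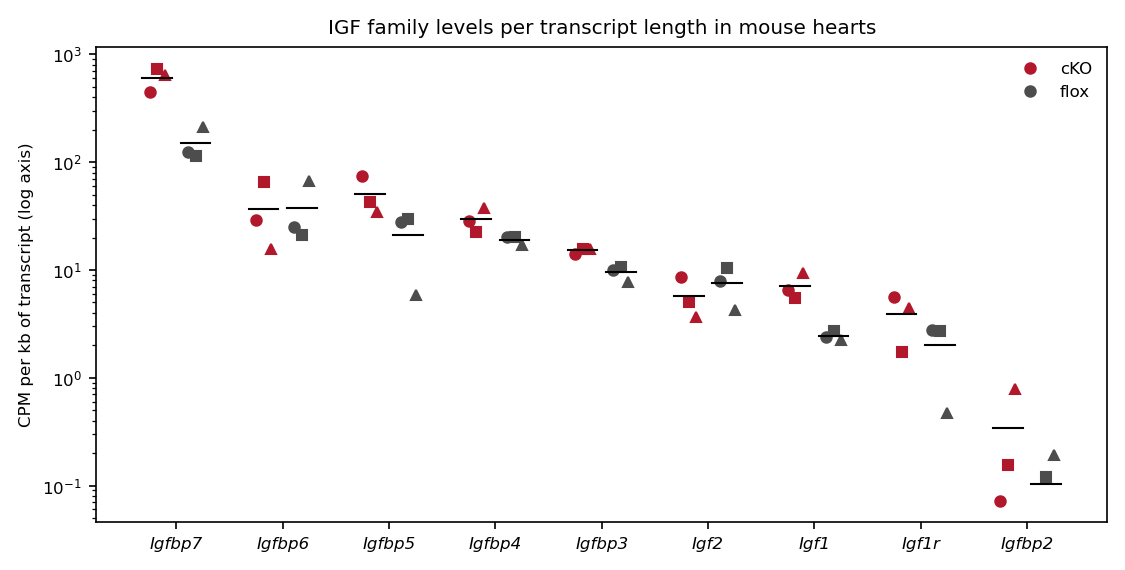
Levels of the 9 genes in mouse hearts as CPM per kb of longest transcript on a log axis, with cKO points left of flox points, circles, squares and triangles for replicates 1, 2 and 3, and a line at each mean. Igfbp7 is the highest gene in both groups, at means of 610 in cKO hearts and 151 in flox hearts; the Igfbp2 value of 0 in flox replicate 1 cannot be drawn on this axis.

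Fold changes were read against transcript length because several libraries had a trend with it. All 9 genes had a length, but only 78.9% of the tested heart genes did, so the class medians describe those genes alone. In the hearts the median log2 fold change was -0.57 over the 1877 genes with transcripts up to 1500 bases and between -0.02 and 0.17 in the 5 classes of longer transcripts. Without flox replicate 3 the shortest class had a median of 0.22 and the longest, over 9000 bases, had -0.31. Igfbp7, in the shortest class, thus lay above its class median in either case (2.02 against -0.57, and 2.35 against 0.22). Igf1, in the class of 7000 to 9000 bases, did so too, with 1.55 against a class median of 0.16, and 1.49 against -0.21 without flox replicate 3. Igfbp6, in the shortest class, was at -0.03 and at 0.69.

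**Figure D3:**
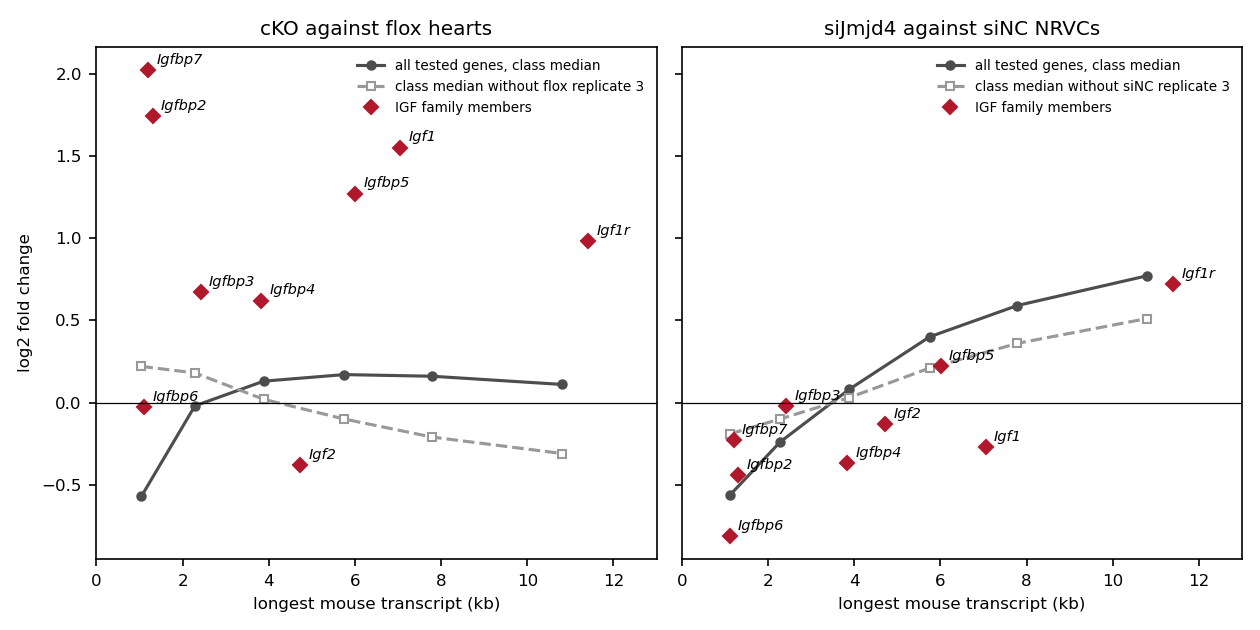
Log2 fold change against the length of the longest mouse transcript, with cKO against flox hearts on the left and siJmjd4 against siNC NRVCs on the right. Lines join the class medians of all tested genes, solid for 6 libraries and dashed without flox replicate 3 or siNC replicate 3, and diamonds are the 9 genes from the fits of 6 libraries; in the hearts Igfbp7 lies at 2.02 over a class median of -0.57, while in the NRVCs Igf1r lies at 0.72 beside a class median of 0.77.

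The labels call the cell type of the hearts cardiomyocytes, but markers of other cell types were present in every heart library, and in bulk RNA fewer cells of a type and less RNA per cell cannot be told apart. Activated fibroblast markers (Postn, Cthrc1, Comp, Cilp and Meox1) summed to 958 to 3170 CPM in cKO hearts and 41.9 to 86.3 CPM in flox hearts. Of the 5, 3 (Comp, Cilp and Meox1) were called higher, where 0.37% of all genes were. The largest part of the cKO sums was Postn, at 836, 533 and 2450 CPM in cKO replicates 1, 2 and 3. Postn itself was not called by edgeR (adjusted p = 0.0615). Fibroblast markers summed to 2380 to 2760 CPM in cKO hearts and 1440 to 2040 CPM in flox hearts, with 0 of 7 called. Of the 7, 4 were higher without overlap (14.9% of all genes were), 3 overlapped, and Dpt and Gsn were negative. Lum and Tcf21 were called without flox replicate 3, a fit that called 7.19% of all genes. Macrophage markers summed to 703 to 1000 CPM in cKO hearts and 346 to 699 CPM in flox hearts, with 0 of 6 called. Of the 6, 3 were higher without overlap (14.9% of all genes were), and C1qa, Mrc1 and Lyz2 overlapped. In the fit without flox replicate 3, 4 of the 6 (Adgre1, C1qa, Cd68 and Lyz2) were called. The sums of these 3 lists did not overlap between the groups, narrowly so for macrophages, with 703 CPM in the lowest cKO heart and 699 CPM in the highest flox heart. Cardiomyocyte markers summed to 23200 to 27100 CPM in cKO hearts and 40900 to 45100 CPM in flox hearts, with 0 of 7 called. Only Tnni3 was lower without overlap (11.2% of all genes were), the others overlapped, and Actn2 was positive. Different genes made up the flox sums. Myh6 was at 24000, 21400 and 3660 CPM in flox replicates 1, 2 and 3, and Myl2 at 2620, 2690 and 17200 CPM. The sums of endothelial markers overlapped, at 746 to 838 CPM in cKO hearts and 443 to 1100 CPM in flox hearts. Those of smooth muscle and pericytes also overlapped, at 917 to 1110 CPM in cKO hearts and 980 to 1690 CPM in flox hearts. In that list only Acta2 was lower without overlap, at 87.5, 134 and 172 CPM in cKO hearts and 223, 330 and 414 CPM in flox hearts. Lymphocyte markers were low, at 16.7 to 38.6 CPM in cKO hearts and 3.36 to 15.8 CPM in flox hearts. No marker was at 0 in all heart libraries. The part of these cell types in the IGF results was not tested.

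The heart genes whose pattern over the 6 libraries was most like that of Igf1, by the root mean square difference of centred log2 CPM over 12365 genes, were Tnfrsf23 (0.08), a decoy receptor for TRAIL in the mouse, Orai2 (0.10), a store-operated calcium channel subunit, and Nucb2 (0.10), a calcium-binding protein. Their own log2 fold changes were 1.46, 1.61 and 1.47.

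Around the 9 genes, a list of 33 genes of IGF supply, transport and signalling was read, of which 30 were tested in the hearts and 0 were called (background 0.508%). Of the 30, 16 were positive, with a median log2 fold change of 0.10, and 4 were higher (14.9% of all genes were) and 2 lower (11.2%) without overlap. Ghr, the growth hormone receptor, lay at 71.6, 67.4 and 82.4 CPM in cKO hearts and at 138, 133 and 170 CPM in flox hearts. Every cKO heart was below every flox heart, with a log2 fold change of -0.99 (SE 0.30, adjusted p = 0.195). Without flox replicate 3, a fit that called 7.19% of all genes, Ghr passed at -0.87 (adjusted p = 0.0446). Stc1, a stanniocalcin that inhibits the PAPP-A proteases, lay at 5.46, 6.66 and 7.62 CPM in cKO hearts and at 2.25, 2.87 and 0.452 CPM in flox hearts. It did not overlap either, with a log2 fold change of 1.81 (adjusted p = 0.249), and passed without flox replicate 3 at 1.36 (adjusted p = 0.0325). Pik3r1, a regulatory subunit of phosphoinositide 3-kinase, lay at 62.7, 37.7 and 60.5 CPM in cKO hearts and at 198, 175 and 29.8 CPM in flox hearts. It overlapped only through flox replicate 3, with a log2 fold change of -1.32 (adjusted p = 0.426), and -1.79 (adjusted p = 0.0154) without that library. Igf2bp2, which binds Igf2 mRNA, Stc2, the second stanniocalcin, and Shc1, an adaptor of the receptor, stood at 1.16, 0.69 and 0.68 on the log2 scale with no overlap, and Akt2, a kinase downstream of the receptor, had -0.78 with no overlap. Pappa2, a protease of IGF binding proteins, was under 1 CPM in every heart library and overlapped. Igfbp1, the remaining binding protein of the classical family, was at 0 in all 6 hearts.

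In the NRVCs 0 of the 9 genes was called, where 0.00645% of all 15497 genes tested were called, which is 1 gene. At an unadjusted p under 0.05 there was 1 of the 9 (Igf1r), where 8.71% of all genes were. Igf1r was higher without overlap in the libraries labelled siJmjd4, and Igf2, Igfbp4, Igfbp6 and Igfbp7 were lower without overlap. That made 5 of 9 without overlap, where 40.2% of all genes did not overlap, 22.4% being higher and 17.8% lower. The median log2 fold change of the 9 was -0.23, with 2 positive, against a median of 0.01 over all genes, of which 50.3% were positive.

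Of the ligands, Igf1 lay at 16.8, 10.4 and 16.2 CPM in libraries labelled siJmjd4 and at 11.9, 16.9 and 23.6 CPM in siNC. These overlapped, with a log2 fold change of -0.27 (SE 0.32, adjusted p = 0.593), which was 0.01 without siNC replicate 3. Igf2 was at 50.6, 53.6 and 56.1 CPM in libraries labelled siJmjd4 and at 56.6, 58.7 and 59.9 CPM in siNC, a separation of under 1 CPM between the nearest libraries. Its log2 fold change was -0.13 (SE 0.13, adjusted p = 0.54). The Igf1 to Igf2 count ratio was 0.332, 0.195 and 0.289 in the libraries labelled siJmjd4 and 0.211, 0.288 and 0.394 in siNC, so Igf2 outnumbered Igf1 in all 6.

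The receptor Igf1r lay at 25.1, 32.3 and 40.5 CPM in libraries labelled siJmjd4 and at 22.1, 17.3 and 20.3 CPM in siNC. The groups did not overlap, for a log2 fold change of 0.72 (SE 0.23, adjusted p = 0.379). The genes of its length class, over 9000 bases by the mouse transcript of the same symbol, had a median of 0.77, so Igf1r was at the level of other long transcripts, and with a correction for length its log2 fold change was -0.20. It passed in limma voom with quality weights (0.76, adjusted p = 0.042) and without siNC replicate 3 and siJmjd4 replicate 1 (0.87, adjusted p = 0.00827), fits that called 7.41% and 15.8% of all genes. The genes of most like pattern among 11774 were Gsk3b (0.07), a kinase that Akt inhibits, Med14 (0.08), a Mediator subunit, and Fosl2 (0.09), an AP-1 transcription factor, by the same root mean square difference.

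Igfbp7 had the most counts of the 9 in every NRVC library, at 730, 708 and 686 CPM in libraries labelled siJmjd4 and at 746, 829 and 911 CPM in siNC. The highest siJmjd4 library was close under the lowest siNC library, for a log2 fold change of -0.23 (SE 0.15, adjusted p = 0.401). With the correction for length it was 0.22. Igfbp7 took 76.4%, 76.2% and 75.9% of the binding protein counts in the libraries labelled siJmjd4 and 75.7%, 74.3% and 76.9% in siNC. Igfbp4 lay at 31.7, 25.4 and 28.6 CPM in libraries labelled siJmjd4 and at 37, 35.7 and 37.9 CPM in siNC. These groups were separate, with a log2 fold change of -0.37 (SE 0.15, adjusted p = 0.379). Igfbp4 passed in limma voom with quality weights (-0.40, adjusted p = 0.0484) and without siNC replicate 3 and siJmjd4 replicate 1 (-0.45, adjusted p = 0.0188). These fits called 7.41% and 15.8% of all genes.

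Igfbp6 lay at 45.1, 48.8 and 47.8 CPM in libraries labelled siJmjd4 and at 53.2, 55.2 and 140 CPM in siNC. Its log2 fold change of -0.81 (SE 0.39, adjusted p = 0.379) rested largely on siNC replicate 3, without which it was -0.20 (adjusted p = 0.154). Igfbp5 showed the reverse in the same library, at 14.7, 13.6 and 15.4 CPM in libraries labelled siJmjd4 and 17.8, 14.4 and 5.3 CPM in siNC. For Igfbp5 the log2 fold change came to 0.22 (SE 0.43, adjusted p = 0.753), or -0.15 without siNC replicate 3. Igfbp3 lay at 131, 130 and 124 CPM in libraries labelled siJmjd4 and at 128, 178 and 85.1 CPM in siNC, and Igfbp2 at 2.85, 3 and 2.06 CPM in libraries labelled siJmjd4 and at 2.71, 2.78 and 5.27 CPM in siNC. Both overlapped, with log2 fold changes of -0.02 (SE 0.27) and -0.44 (SE 0.36). Markers of other cells were also present in the NRVCs. Fibroblast markers summed to 22800 to 26900 CPM in libraries labelled siJmjd4 and 22800 to 24500 CPM in siNC, with 0 of 7 called. Nearly all of this was Col1a1, at 21800 to 26000 CPM in libraries labelled siJmjd4 and 21700 to 23800 CPM in siNC. Cardiomyocyte markers summed to 3940 to 4640 CPM in libraries labelled siJmjd4 and 4850 to 9180 CPM in siNC, with 0 of 6 called and Ttn not among the rows used. Tnnt2 was at 1980, 1990 and 5050 CPM in siNC replicates 1, 2 and 3. Of the 6, 4 were lower without overlap (17.8% of all genes were), and Ryr2 was higher without overlap. Macrophage markers were at 318 to 358 CPM in libraries labelled siJmjd4 and 322 to 397 CPM in siNC, and Cd3e was at 0 in all 6. Activated fibroblast markers were at 1980 to 2200 CPM in libraries labelled siJmjd4 and 1170 to 2090 CPM in siNC, with 0 of 5 called. Endothelial markers were at 100 to 118 CPM in libraries labelled siJmjd4 and 89.3 to 139 CPM in siNC, and those of smooth muscle and pericytes at 4700 to 4990 CPM in libraries labelled siJmjd4 and 4830 to 8310 CPM in siNC. Lymphocyte markers were at 6.73 to 8.81 CPM in libraries labelled siJmjd4 and 2.87 to 6.76 CPM in siNC, and no marker of these lists was called. The part of these cells in the results was not tested.

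Of the 33 genes around the family, 27 were tested in the NRVCs and 0 were called (background 0.00645%). Of these, 22 were positive, 16 were higher without overlap (22.4% of all genes were) and 3 were lower (17.8%), with a median log2 fold change of 0.53, or 0.34 without siNC replicate 3. Transcripts over 5000 bases, whose classes had medians of 0.40 to 0.77 over all genes, made up 16 of the 27. Pdpk1, the kinase that activates Akt, lay at 13.5, 17.3 and 19.6 CPM in libraries labelled siJmjd4 and at 8.1, 6.53 and 3.57 CPM in siNC. These did not overlap, with a log2 fold change of 1.47 (SE 0.34, adjusted p = 0.379). Without siNC replicate 3, a fit that called 0.57% of all genes, Pdpk1 passed at 1.20 (adjusted p = 0.0438). The transcription factors Foxo1 and Foxo3, which Akt restrains, had log2 fold changes of 1.31 and 1.12, and the insulin receptor substrate Irs1 had 1.24. The protease Pappa2, under 1 CPM in every NRVC library, had 1.03. Ghr, which was lower in every cKO heart, stood at 0.51 on the log2 scale in the NRVCs, and the kinase Mtor at 0.48. All 6 were higher without overlap and none passed, each with an adjusted p of 0.379. Medians of their length classes were 0.59 for Foxo1 and Mtor, 0.40 for Foxo3, 0.77 for Irs1 and Pappa2 and 0.08 for Ghr.

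**Figure D4:**
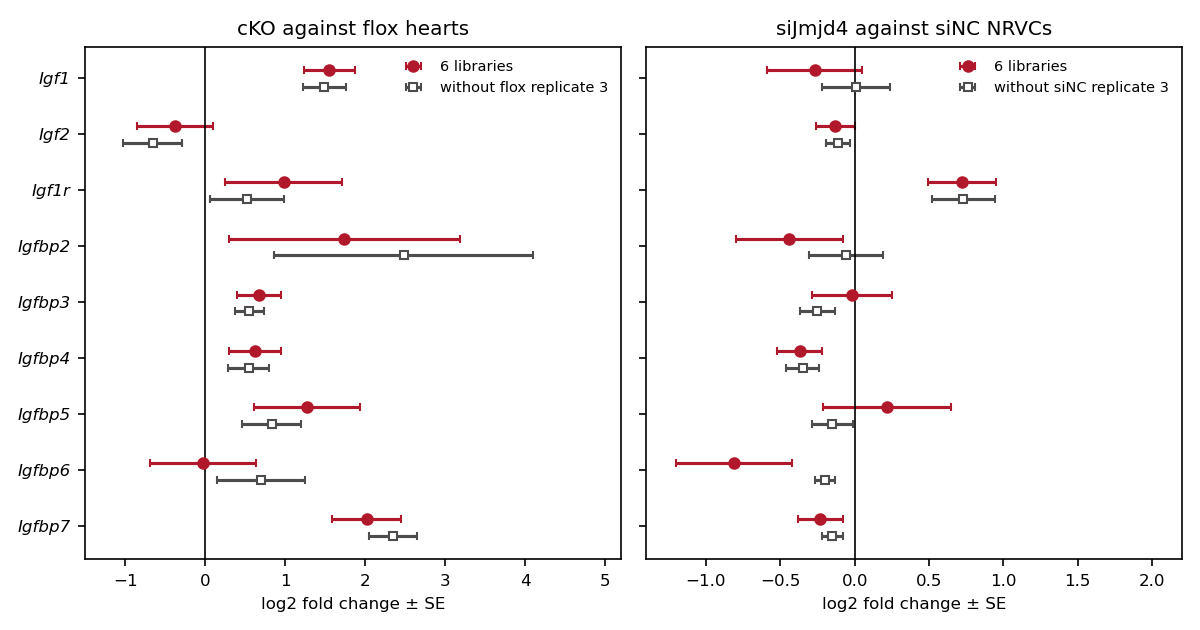
Log2 fold change ± SE of the 9 genes for cKO against flox hearts on the left and siJmjd4 against siNC NRVCs on the right, with filled points for 6 libraries and open points without flox replicate 3 or siNC replicate 3. Igfbp7 and Igf1 stand at 2.02 and 1.55 in the hearts, and at -0.23 and -0.27 in the NRVCs.

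The response of each gene in the hearts minus its response in the NRVCs was tested with edgeR in a single model that held the 12 libraries, over 13482 genes paired by symbol, of which 1.68% were called. Igfbp7 was called, with a difference of 2.25 on the log2 scale (SE 0.44, adjusted p = 0.0276), made of 2.02 in the hearts and -0.23 in the NRVCs. The call was lost with DESeq2's size factors (adjusted p = 0.0538) and when any of 9 of the 12 libraries was left out, over a range of 2.09 to 2.55 in the difference. Leaving out cKO replicate 1, flox replicate 3 or siNC replicate 1 kept it. The difference for Igf1 was 1.82 (SE 0.45, adjusted p = 0.0718) and passed without flox replicate 3 (1.74, adjusted p = 0.0461), where 899 of 13684 genes passed. Igfbp4 differed by 0.99 (SE 0.34, adjusted p = 0.18), and the other 6 lay between -0.26 for Igf2 and 2.24 for Igfbp2, with none called. Species, age, tissue against culture and the means of targeting Jmjd4 all change together between the systems and cannot be told apart.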

How the data were processed

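Libraries were made from TRIzol-extracted total RNA by standard Illumina methods, per the labels. For each system the authors deposited raw counts, whole numbers per gene symbol. The submitters' processing notes name the tools HISAT2 2.1.0, edgeR 3.20.9 and StringTie 1.3.4 and, as builds, rn6 and mm10, without giving their roles. How reads were counted, with or without strand and on which annotation, was not given in sources used here, so overlapping and antisense genes may share reads.

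Each system was fitted on its own 6 libraries with edgeR 4.0.16 in R 4.3.3 (filterByExpr with a minimum count of 10, TMM scaling, robust quasi-likelihood, group as the only term). Two-sided p-values were adjusted over all genes of the fit by Benjamini-Hochberg and called under 0.05. An exact permutation test of 3 libraries against 3 gives at least 0.1 and was not used. SEs come from the quasi-likelihood F statistic. DESeq2 1.42.0 and limma 3.58.1 served as alternatives, with other scalings and filters, a length correction (a smooth of span 0.3 as an offset), the replicate number as a block and each library left out. Fits without both flox replicate 3 and cKO replicate 2, or both siNC replicate 3 and siJmjd4 replicate 1, were added after the data were seen. Lengths and positions come from GENCODE's mouse annotation on GRCm38, which mm10 names. All 9 genes have a length, as do 78.9% of the mouse genes tested and, with the mouse length matched by symbol, 82.8% of the rat genes. Since the mouse share is under 80%, class medians and the length correction there speak only for genes with a length, and a length check of all tested heart genes is void.

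All 9 genes and all lists were chosen with earlier results of these data known. All 9 are named, with Jmjd4, up to 8 pathway genes per comparison (called genes, then the smallest p) and the 3 genes most like the member with the smallest p. H19 and Pappa were not analysed in the rat. The values of 1 gene that this rule takes are not reported here. No libraries were duplicates, since counts of replicate pairs had a chi-square of 26.1 to 1580 for each degree of freedom. The code was tested on simulated data.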

Additional observations from a re-analysis of the deposited data

Results flagged for a closer look

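The response of Igfbp7 differed between the systems by the test of the difference itself. It was 2.25 higher on the log2 scale in cKO against flox hearts than in siJmjd4 against siNC NRVCs (SE 0.44, adjusted p = 0.0276 over 13482 genes, edgeR). All 3 cKO hearts were above all 3 flox hearts, where 14.9% of all genes were higher without overlap. All 3 libraries labelled siJmjd4 were below all 3 siNC libraries, where 17.8% of all genes were lower without overlap. The log2 fold change in the NRVCs was -0.23, and 0.22 with the length correction. The call of the difference was lost in 10 of 16 alternative fits, among them the fit with DESeq2's size factors. Groups of 3 are too small for a check of single outlying samples.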

How the results depend on the processing

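The counts of called genes moved most. Against 92 in the hearts (67 higher, 25 lower), 20 were called with total counts alone (20 higher, 0 lower), 1748 with DESeq2's Wald test, 3851 with limma voom and quality weights, 146 with no filter, 1049 with the length correction, 3585 without flox replicate 3 and cKO replicate 2, and 0 to 1373 with 1 library left out. It was 0 without any single library other than flox replicate 3 (1657 to 2587 genes at an unadjusted p under 0.05). Against 1 in the NRVCs, 168 were called with the Wald test, 1148 with voom, 2470 without siNC replicate 3 and siJmjd4 replicate 1, and 0 to 90 with 1 library left out, 0 being without any siJmjd4 library (339 to 834 at an unadjusted p under 0.05). Total counts alone put the median of all heart genes at 0.54. Of the 9 IGF genes, 0 called in the hearts became 2 (Wald), 4 (voom), 1 (length), 5 (without flox replicate 3 and cKO replicate 2) and 0 to 2 with 1 library left out, and 0 in the NRVCs became 2 (voom) and 2 (without siNC replicate 3 and siJmjd4 replicate 1). The 1 gene whose response differed between the systems became 0 with DESeq2's size factors and 0 to 2 with 1 library left out.

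Replicate numbers did not pair the samples (correlations of same-numbered deviations 0.36, -0.48 and -0.33 in the hearts and -0.14, -0.02 and -0.15 in the NRVCs), and 1 of 6 and 0 of 6 libraries correlated best with their own number. With the number as a block, 0 genes were called in either system by edgeR (1591 and 472 at an unadjusted p under 0.05), Igf1 and Igfbp7 in the hearts were at 1.52 and 2.04 (adjusted p = 0.428 and 0.4), and Igfbp3 in the NRVCs was at 0.04.

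Signs reversed as follows. In the hearts, Igf2 was at 0.04 (total counts), and Igfbp6 at 0.77 (total counts), 0.08 (voom), 0.02 (no filter), 0.51 (length) and -0.73 to 0.69 with 1 library left out. In the NRVCs, Igfbp3 was at 0.04 (total counts), 0.13 (length) and -0.25 to 0.27 with 1 library left out. Its -0.29 with 2 libraries out kept the sign of the main -0.02. Igfbp5 was at -0.12 (voom), -0.12 (length), -0.18 (2 libraries out) and -0.15 to 0.56 with 1 library left out. Jmjd4 was at -0.17 (voom), -0.20 (2 libraries out) and -0.16 to 0.66, and Igf1 at -0.48 to 0.01, with 1 library left out. With the length correction Igf1r was at -0.20, Igfbp2 at 0.07 and Igfbp7 at 0.22. The difference between systems was 0.04 (total counts) and -0.67 to 0.05 for Igf2, and -0.22 to 0.61 for Igf1r. The cause was not tested. Igf1 and Igfbp7 stayed positive in the hearts in all 15 alternatives, at 1.17 to 2.11 (adjusted p 2e-04 to 0.428) and 1.86 to 2.72 (adjusted p 0.00021 to 0.4). Depth limits Igfbp2 in the hearts, with 0 to 92 counts, and a mean of at least 5 CPM left it untested in both systems.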
